A study of Homo sapiens with 8 samples.

Results

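The genes described here are the enzymes that write and remove methyl and acetyl groups on histones and the enzymes that add or oxidise methyl groups on cytosine, with the SET domain and sirtuin proteins of the same symbol families. They are all genes of the files whose symbol begins with KDM, KMT, SETD, SETDB, EZH, HDAC, SIRT, KAT, DNMT or TET followed by a digit, with the Y-linked KDM5D left out. The rule used symbols only and no measured value. It found 70 of 16726 genes, of which 68 are named for a protein and 2, KDM4A-AS1 and KMT2E-AS1, are antisense RNAs.

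Poly(A) RNA was sequenced from 2 human acute myeloid leukaemia lines, NB4 and MM6, both labelled as acute monocytic leukaemia; NB4 is widely used as an acute promyelocytic line. Each line carried, through a lentiviral pLKO.1 vector, either shM14, which is 1 hairpin against METTL14 (the clone labelled shM14-#2), or the non-specific hairpin shNS. All 4 groups, NB4 shM14, NB4 shNS, MM6 shM14 and MM6 shNS, therefore share transduction and selection in 0.5 µg/mL puromycin for 2 passages. There were 2 libraries per group. METTL14 is a subunit of the complex that places N6-methyladenosine on mRNA, and with a single hairpin its effect and an off-target effect of that hairpin cannot be told apart. The labels do not say whether the 2 libraries of a group came from separate cultures, so a p-value speaks only of the variation among the libraries at hand, which may be technical.

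Chromatin enzymes act in opposed pairs. Methyltransferases of the KMT2 and SETD1 families methylate lysine 4 of histone H3 at active promoters and enhancers, and the KDM1 and KDM5 demethylases remove that mark; EZH1 and EZH2 are the alternative catalytic subunits of Polycomb repressive complex PRC2, which methylates lysine 27, and KDM6 enzymes reverse it. KAT enzymes acetylate histones, HDACs and nuclear sirtuins deacetylate them, DNMTs methylate cytosine and TET enzymes oxidise methylcytosine. In acute myeloid leukaemia, KMT2A fusions and mutations of DNMT3A, TET2 and EZH2 are well-known lesions, and DNMT1 and KDM1A are targets of drugs studied in the disease.

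Between 23272126 and 28814911 reads per library fell on the listed genes, and 16185 to 16403 genes had a read. The targeted transcript was lower in the shM14 libraries of both lines. METTL14 was at 8.35 and 8.35 RPKM (reads per kilobase and per 1e6 reads on genes) in NB4 shM14 libraries and 14.1 and 12.5 RPKM in NB4 shNS libraries, a log2 change of -0.61 (SE 0.07, adjusted p = 0.0024). In MM6 it was at 6.54 and 6.55 RPKM with shM14 and 12.5 and 13.4 RPKM with shNS, a log2 change of -0.88 (SE 0.13) with an adjusted p of 0.088. The 7 monocyte markers, all of them in the files, summed to 142 and 142 RPKM in NB4 shM14 libraries and 48.6 and 50.4 RPKM in NB4 shNS libraries, and 6 of the 6 tested rose in NB4. In MM6 the same sum was 14575 and 8301 RPKM with shM14 and 9309 and 5905 RPKM with shNS, so it differed between replicates as well as between hairpins. Of the 7 markers 6 had a positive log2 change in MM6, where 0 passed. Over both lines 6 of the 7 rose, beside 4.80% of all genes, with a median log2 change of 1.25 over the list. CD14, a defining monocyte receptor, was at 0.111 and 0.105 RPKM in NB4 shNS libraries, whose leading marker was the promyelocyte enzyme MPO. The 5 promyelocyte markers summed to 2318 and 2361 RPKM in NB4 shM14 and 2567 and 2666 RPKM in NB4 shNS libraries, and to 4636 and 5021 RPKM in MM6 shM14 and 4368 and 4551 RPKM in MM6 shNS libraries. Behind the sums, CTSG (log2 change -2.51), AZU1 (-0.26) and MPO (-0.20) fell and PRTN3 (1.48) rose in NB4, and over both lines CTSG (-2.30) and AZU1 (-0.35) fell and PRTN3 (0.93) rose. Of the T cell markers 2 of 4 were in the files, and CD3D was at 60.6 and 58.5 RPKM in NB4 shM14 and 46.9 and 45.0 RPKM in NB4 shNS libraries. CD3D rose in NB4 (0.37) and CD8A, at 0.664 and 0.874 RPKM with shM14 and 1.13 and 1.45 RPKM with shNS, fell (-0.37). CD8A was near the filter and entered the NB4 test through its shNS libraries alone, so its fall has little weight. Neither marker passed over both lines. Of the epithelial markers 3 of 4 were in the files: KRT18 and KRT8 fell in NB4 (-0.39 and -0.30) and over both lines (-0.46 and -0.36), and EPCAM was at 9.69 and 9.38 RPKM in NB4 shM14 and 9.27 and 10.2 RPKM in NB4 shNS libraries without passing. ELANE was at 0.0387 and 6.45 RPKM in NB4 shM14 replicates 1 and 2 and at 0.0462 and 6.83 RPKM in NB4 shNS replicates 1 and 2, so both second replicates stood above both first ones for that gene. What the ELANE, CD3D and EPCAM values say of the cells in the NB4 libraries is not known from these files. The part of these markers in the results below was not tested. In such bulk samples fewer cells of a type and less RNA per cell cannot be told apart.

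The members whose change passed the test over both lines most firmly were KDM5B, SETD7 and HDAC9, and an annotated start region of each is printed. The values are per gene, so which start was in use was not measured. Each is the RefSeq window from 250 bases before to 50 bases after an annotated start, on build GRCh38.p14, written 5′ to 3′ on the gene's strand. Capitals mark matches, on either strand, to CACGTG (the E-box of MYC and MAX), GGGCGG (the GC box), CCAAT and GAGGAA (a core bound by ETS factors such as SPI1). The KDM5B window is chr1:202808372-202808671 on the minus strand, the SETD7 window chr4:139556170-139556469 on the minus strand, and the HDAC9 window chr7:18086575-18086874 on the plus strand, the most upstream of 5 for that gene.
KDM5B: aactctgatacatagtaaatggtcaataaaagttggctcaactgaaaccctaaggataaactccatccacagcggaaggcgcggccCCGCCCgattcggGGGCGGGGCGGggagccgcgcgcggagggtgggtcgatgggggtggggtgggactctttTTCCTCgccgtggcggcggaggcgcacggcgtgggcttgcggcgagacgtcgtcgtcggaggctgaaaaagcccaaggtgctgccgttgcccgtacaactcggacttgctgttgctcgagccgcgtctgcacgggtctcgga
SETD7: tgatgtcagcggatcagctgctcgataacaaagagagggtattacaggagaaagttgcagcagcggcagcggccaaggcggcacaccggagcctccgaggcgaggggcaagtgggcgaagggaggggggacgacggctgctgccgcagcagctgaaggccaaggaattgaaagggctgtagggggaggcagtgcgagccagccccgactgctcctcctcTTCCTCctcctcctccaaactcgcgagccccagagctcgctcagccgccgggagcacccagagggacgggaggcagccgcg
HDAC9: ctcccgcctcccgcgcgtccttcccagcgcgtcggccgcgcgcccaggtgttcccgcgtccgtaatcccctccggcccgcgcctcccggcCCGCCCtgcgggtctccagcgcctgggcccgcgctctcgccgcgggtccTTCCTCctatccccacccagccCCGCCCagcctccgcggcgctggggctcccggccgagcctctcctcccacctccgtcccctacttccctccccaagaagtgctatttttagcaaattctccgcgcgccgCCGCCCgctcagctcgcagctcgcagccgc
KDM5B held 3 matches to GGGCGG, 2 of which overlap by 1 base in a run of capitals, and 1 match to GAGGAA. SETD7 held 1 match to GAGGAA in a run of CTC repeats and none to the other 3 motifs. HDAC9 held 3 matches to GGGCGG and 1 to GAGGAA in this window. GGGCGG was found in 66.0% of the 100 windows of 64 members and in 45.0% of all 35116 windows, and CACGTG in 14.0% against 7.26%. CCAAT was found in 31.0% of member windows and 34.6% of all windows, and GAGGAA in 32.0% and 27.9%. Median GC content was 67.2% in member windows and 58.7% in all windows, and windows of 1 gene overlap, so these shares are descriptions only.

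As a class the enzymes were moderately abundant: the median of their mean levels over the 8 libraries was 10.7 RPKM, and 3 averaged at least 50 RPKM. These were DNMT1, the maintenance DNA methyltransferase, at 137 RPKM, the class I deacetylase HDAC1 at 100.2 RPKM and the H3K4 demethylase KDM1A (LSD1) at 64.4 RPKM. In the other groups the most abundant members were the PRC2 subunit EZH2 (38.1 RPKM), the H4K20 methyltransferase SETD8 (37.5), SIRT7 (33.0), the SAGA acetyltransferase KAT2A (30.7), the H3K9 demethylase KDM3B (24.2), KMT2E (19.0), HDAC6 (16.3), the H3K9 methyltransferase SETDB1 (16.0), TET3 (11.5) and the H3K27 demethylase KDM6A (7.27), all as mean RPKM. A test was run on genes with at least 1 RPKM in at least 2 of the fitted libraries. Left out everywhere were DNMT3L, a catalytically inactive DNMT3 partner, at 0.0890 to 0.270 RPKM, HDAC11 at 0.0750 to 0.599 RPKM and KDM4D at 0.330 to 1.19 RPKM. KDM7A and SIRT4 passed in NB4 and not in MM6, which left 67 members tested in NB4 and in the fits over both lines and 65 in MM6.

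Over both lines, 4 members fell with shM14 (KDM5B, SETD7, KDM2A and SETDB2) and 1 rose (HDAC9). That is 5 of 67 tested members, beside 11.9% of all 12804 genes at the same adjusted threshold of 0.05; 4.80% of all genes were higher and 7.10% lower. The median log2 change was -0.02 over the members and -0.02 over all genes tested. The share of members called was thus no higher than the background.

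KDM5B, which removes methyl groups from lysine 4 of H3, was at 17.5 and 17.5 RPKM in NB4 shM14 libraries and 29.4 and 29.5 RPKM in NB4 shNS libraries, and at 7.06 and 8.99 RPKM in MM6 shM14 libraries and 15.0 and 14.2 RPKM in MM6 shNS libraries. All 4 knockdown libraries lay below the control libraries of their line, without overlap. The mean differed from that of control by -40.5% in NB4 and -45.1% in MM6, and the common log2 change was -0.76 (SE 0.08, adjusted p = 0.0032).

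SETD7, a monomethyltransferase of H3K4 that also acts on non-histone proteins, was at 3.65 and 3.86 RPKM in NB4 shM14 and 7.61 and 7.44 RPKM in NB4 shNS libraries, and at 5.48 and 6.07 RPKM in MM6 shM14 and 7.79 and 7.61 RPKM in MM6 shNS libraries. The control levels of the lines were alike and the knockdown levels of NB4 were the lowest of the 8 libraries. Its common log2 change was -0.60 (SE 0.10, adjusted p = 0.012).

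HDAC9, a class IIa deacetylase and transcriptional corepressor, was at 1.49 and 1.47 RPKM in NB4 shM14 and 0.861 and 0.866 RPKM in NB4 shNS libraries, and at 5.60 and 8.04 RPKM in MM6 shM14 and 4.06 and 4.07 RPKM in MM6 shNS libraries. It was the reverse of KDM5B in direction: every knockdown library lay above its line's controls, by 71.7% on average in NB4 and 67.7% in MM6. The common log2 change of RPKM + 1 was 0.51 (SE 0.10, adjusted p = 0.020); on that scale the change of a gene this low in NB4 is understated. HDAC9 had 227 to 2107 reads per library, and KDM5B 1285 to 5420.

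KDM2A, a demethylase of H3K36 that binds CpG islands, was at 16.2 and 16.1 RPKM in NB4 shM14 and 20.3 and 22.2 RPKM in NB4 shNS libraries, and at 18.4 and 19.6 RPKM in MM6 shM14 and 21.8 and 21.4 RPKM in MM6 shNS libraries. SETDB2, named as an H3K9 methyltransferase, was at 4.94 and 4.97 RPKM in NB4 shM14 and 7.19 and 6.72 RPKM in NB4 shNS libraries, and at 4.22 and 6.88 RPKM in MM6 shM14 and 7.62 and 8.62 RPKM in MM6 shNS libraries. Neither gene's groups overlapped within a line, though the 2 MM6 shM14 values of SETDB2 lay far apart. The common log2 changes were -0.28 for KDM2A (SE 0.07, adjusted p = 0.044) and -0.46 for SETDB2 (SE 0.12, adjusted p = 0.047). Without any 1 of the 4 NB4 libraries only KDM5B and SETD7 stayed past the threshold over both lines. More members passed without MM6 shM14 replicate 2, and fewer without either MM6 shNS library. The share of all genes called moved in the same direction in each of these fits.

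**Figure D1:**
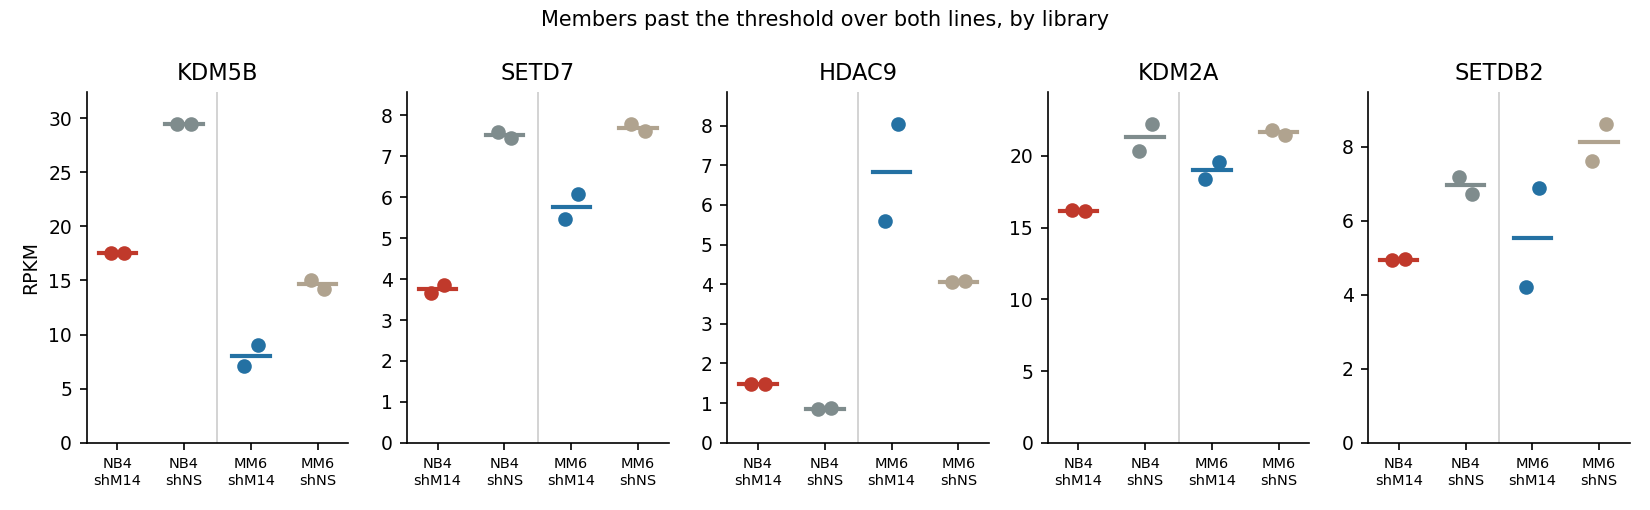
RPKM of KDM5B, SETD7, HDAC9, KDM2A and SETDB2 in each of the 8 libraries (points) with the mean of each group of 2 (bars), NB4 left and MM6 right of the grey line. KDM5B sits at 17.5 RPKM in both NB4 shM14 libraries and at 29.4 and 29.5 RPKM in NB4 shNS, and HDAC9 is the panel in which the shM14 points lie above their controls.

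In NB4, 26 of 67 tested members passed the test, 7 higher and 19 lower, beside 47.4% of all 11531 genes, 22.1% higher and 25.2% lower. The median log2 change was -0.06 over members and -0.01 over all genes. On the scale of log2(RPKM + 1) no member's change was larger than 0.84 in size. The median size among those called was 0.35 for members and 0.33 for all genes. That scale understates the changes of low genes: in mean RPKM, SETD7 differed from control by -50.0% and HDAC9 by 71.7%. Without NB4 shM14 replicate 1 or replicate 2 fewer members passed, and a smaller share of all genes passed too. The groups did not overlap for 23 members that were higher in both shM14 libraries and 32 that were lower in both, beside 37.2% and 40.0% of all genes. Monocyte markers rose in the same libraries, as given above, and their part in these counts was not tested.

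In NB4 1 of 5 H3K4, 5 of 9 H3K9 and H3K36 and 1 of 2 H3K27 demethylases tested fell, beside 25.2% of all genes. These demethylases made up 7 of the 19 members that fell. Besides KDM5B these included KDM6B (JMJD3), which removes the PRC2 mark from H3K27, at 2.94 and 3.08 RPKM in shM14 and 4.82 and 4.53 RPKM in shNS libraries (log2 change -0.50, SE 0.05, adjusted p = 0.0021). KDM7A, a PHF8-related demethylase, was at 7.81 and 8.26 RPKM with shM14 and 11.2 and 10.9 RPKM with shNS (-0.42, SE 0.05, adjusted p = 0.0031). For both genes the replicates differed far less than the groups. Of the 9 tested demethylases of H3K9 and H3K36, 5 fell and 1 rose: KDM4C (-0.34, adjusted p = 0.0046) and KDM2A (-0.37, adjusted p = 0.0066) fell with KDM7A, and KDM2B, a CpG island reader that recruits a Polycomb complex, rose (0.19, adjusted p = 0.033). KDM4A (-0.21) and KDM4B (-0.25) complete the 5 and were named after their values were seen. Among the other H3K4 demethylases KDM1A had a log2 change of -0.01, KDM1B of -0.13, KDM5A of -0.11 and KDM5C of -0.03, none past the threshold.

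Methyltransferases of histone H3 went both ways in NB4. SETD7 had the most negative change of any member (-0.84, SE 0.05, adjusted p = 0.00055). In contrast KMT2D, an enhancer H3K4 methyltransferase, was at 21.7 and 22.3 RPKM with shM14 and 17.5 and 19.4 RPKM with shNS (0.24, SE 0.06, adjusted p = 0.031), and KMT2E, a catalytically inactive relative, at 26.9 and 27.5 RPKM with shM14 and 24.6 and 23.8 RPKM with shNS (0.16, SE 0.05, adjusted p = 0.039). KMT2A, the gene rearranged in many leukaemias, was not past limma's threshold at 19.7 and 20.2 RPKM with shM14 and 18.7 and 19.1 RPKM with shNS (0.08, adjusted p = 0.23). With voom 7 of the 8 H3K4 methyltransferases were called, KMT2A among them, beside 56.0% of all genes. The alternative PRC2 subunits moved apart. EZH2 was at 57.4 and 57.2 RPKM in shM14 and 49.1 and 49.9 RPKM in shNS libraries (0.21, SE 0.04, adjusted p = 0.017), and EZH1 at 12.3 and 12.002 RPKM in shM14 and 15.5 and 15.9 RPKM in shNS libraries (-0.35, SE 0.05, adjusted p = 0.0043). Both H3K9 methyltransferases of the SETDB family fell, SETDB2 by a log2 change of -0.42 (adjusted p = 0.0033) and SETDB1, which silences retroelements, of -0.18 (adjusted p = 0.029, named after its value was seen). Of 7 other SET domain proteins limma called 1, SETD9, which rose (0.36, adjusted p = 0.027), and voom called 4.

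Acetyltransferases and class I deacetylases gave no call in NB4: 0 of 7 and 0 of 4 passed, and their log2 changes ran from -0.15 (KAT6B) to 0.10 (KAT8) and from -0.13 (HDAC1) to 0.04 (HDAC3). At an unadjusted p under 0.05 limma gave 1 acetyltransferase and 0 class I deacetylases, and voom called 1 of each. The share of all genes called by voom in NB4 was 56.0%. The class II deacetylases, which shuttle between nucleus and cytoplasm or act mainly in the cytoplasm, held 4 that fell and 1 that rose among 6 tested. HDAC5 was at 8.91 and 9.46 RPKM in shM14 and 12.4 and 13.4 RPKM in shNS libraries (-0.45, SE 0.06, adjusted p = 0.0042), and HDAC6, the tubulin deacetylase, at 19.9 and 20.6 RPKM in shM14 and 26.1 and 25.9 RPKM in shNS libraries (-0.34, SE 0.05, adjusted p = 0.0045). HDAC10 (-0.52, adjusted p = 0.0091) and HDAC4 (-0.27, adjusted p = 0.010), named after their values were seen, fell too. The class IIa members HDAC4 and HDAC5 thus fell where their relative HDAC9 rose (0.41, SE 0.04, adjusted p = 0.0023). HDAC9 was at 0.861 and 0.866 RPKM in NB4 shNS libraries and entered the NB4 test through its shM14 libraries alone. From that control level a fall could not have been tested. The class IIa member HDAC7 was not past the threshold with limma (0.11, adjusted p = 0.15), whereas voom called all 6. Of 7 sirtuins, NAD-dependent deacylases, the mitochondrial SIRT5 was at 3.09 and 3.48 RPKM in shM14 and 5.44 and 4.995 RPKM in shNS libraries (-0.54, SE 0.07, adjusted p = 0.0037) and the nucleolar SIRT7 at 18.2 and 18.2 RPKM in shM14 and 15.1 and 15.5 RPKM in shNS libraries (0.24, SE 0.05, adjusted p = 0.012). Mitochondrial SIRT3 fell as well (-0.24, adjusted p = 0.024, named after its value was seen).

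Among DNA methylation enzymes, the de novo methyltransferase DNMT3A fell in NB4. It was at 14.7 and 14.7 RPKM in shM14 libraries and 22.3 and 22.4 RPKM in shNS libraries, so the groups were far apart beside the spread of their replicates (-0.57, SE 0.04, adjusted p = 0.0010). DNMT1 was at 189 and 194 RPKM with shM14 and 176 and 181 RPKM with shNS (0.10, adjusted p = 0.13), and DNMT3B at 31.3 and 34.1 RPKM with shM14 and 30.9 and 29.9 RPKM with shNS (0.10, adjusted p = 0.21). Neither passed with limma, whereas voom called all 3 methyltransferases, beside 56.0% of all genes. Of the 3 TET dioxygenases, TET3 was at 11.2 and 11.5 RPKM with shM14 and 13.2 and 13.1 RPKM with shNS (-0.19, adjusted p = 0.022, named after its value was seen). TET2 (-0.11, adjusted p = 0.11) and TET1 (0.11, adjusted p = 0.15) did not pass with limma; voom called 2 of the 3. The antisense RNAs KDM4A-AS1 and KMT2E-AS1 had log2 changes of 0.06 and 0.01 and did not pass; the strand used in counting is not stated, so reads from KDM4A or KMT2E cannot be told apart from theirs.

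**Figure D2:**
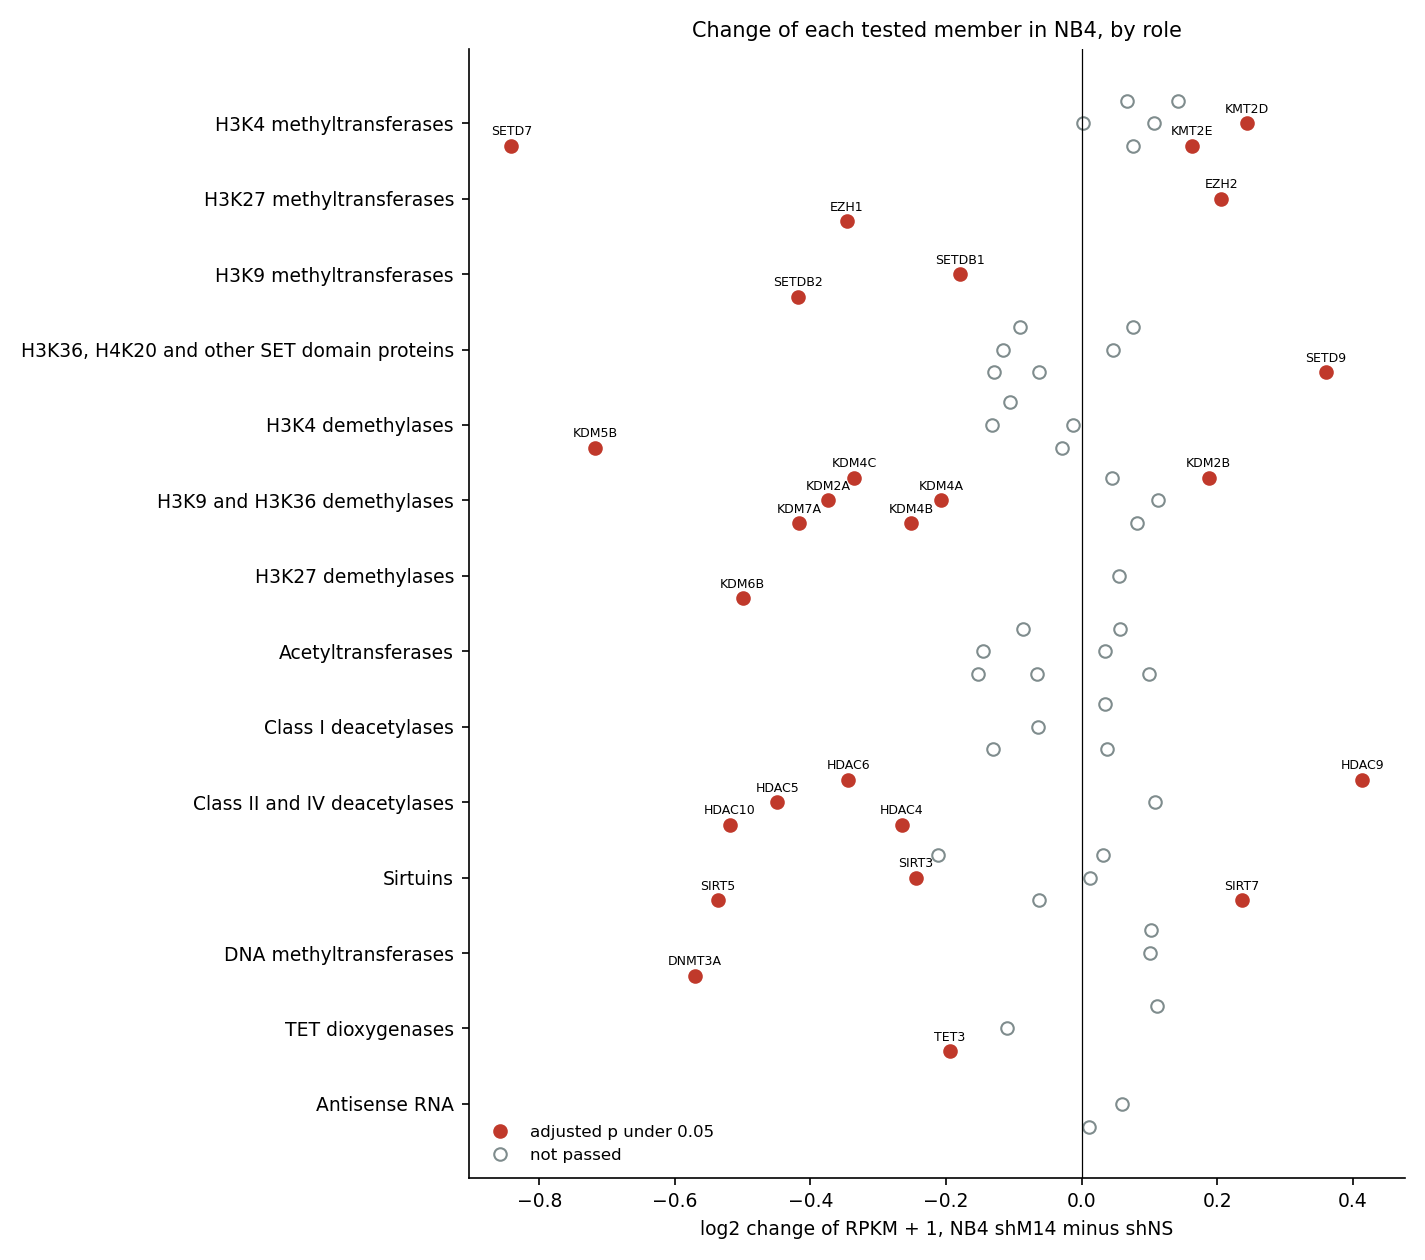
Log2 change of RPKM + 1 (NB4 shM14 minus shNS, horizontal axis) of each of the 67 tested members, grouped by role down the page; filled points passed an adjusted p of 0.05 and are labelled. SETD7 at -0.84 and HDAC9 at 0.41 mark the ends, and no filled point stands in the rows of the acetyltransferases or class I deacetylases.

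In MM6 no member passed the limma test at the adjusted threshold, beside 9 of 11895 genes (0.0757%; 0.0504% higher and 0.0252% lower). At an unadjusted p under 0.05 there were 7 members, 2 higher and 5 lower, beside 15.0% of all genes. Voom on the recovered reads called 0 members, beside 0.21% of all genes. The smallest p-values were those of KDM5B (-0.80, SE 0.16, adjusted p = 0.14), HDAC9 (0.61, SE 0.19, adjusted p = 0.24), KAT6B (-0.43, SE 0.15, adjusted p = 0.27), KDM5A (-0.39, SE 0.13, adjusted p = 0.28) and HDAC7 (0.42, SE 0.15, adjusted p = 0.29). In the authors' deposited table, whose test is not given in the sources used here, KDM5B (log2 fold change -0.84, adjusted p = 0.014) and HDAC9 (0.77, adjusted p = 0.037) were the 2 members under 0.05 in MM6, beside 3.28% of all rows. The authors' deposited table had 36 of 70 members under 0.05 in NB4, 15 higher and 21 lower, beside 43.6% of all rows.

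Several MM6 values were separated by hairpin without passing. KAT6B, an acetyltransferase of H3K23, was at 4.62 and 5.63 RPKM with shM14 and 7.26 and 7.21 RPKM with shNS, and KDM5A at 5.18 and 5.33 RPKM with shM14 and 7.63 and 6.83 RPKM with shNS. HDAC7 was at 12.6 and 15.0 RPKM with shM14 and 9.68 and 10.3 RPKM with shNS. The groups did not overlap for 6 members that were higher in both shM14 libraries and 16 that were lower in both, beside 19.0% and 25.8% of all genes. MM6 libraries varied more between replicates than NB4 libraries: the SD over genes of the replicate difference was 0.377 and 0.353 in log2 for shM14 and shNS in MM6, and 0.125 and 0.152 in NB4. The median log2 change in MM6 was -0.00 over members and -0.03 over all genes.

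The difference between the responses, MM6 change minus NB4 change, passed for no member of 67 with limma, beside 2.92% of all genes (1.53% higher and 1.39% lower in MM6). At an unadjusted p under 0.05 there were 8 members, beside 19.6% of all genes. With voom 2 were called, EZH1 and SETD7, beside 1.90% of all genes. EZH1 had the smallest p: it was at 6.85 and 8.95 RPKM in MM6 shM14 and 5.43 and 6.04 RPKM in MM6 shNS libraries, higher in both knockdown libraries, where in NB4 it was lower in both. The difference was 0.74 (SE 0.17, adjusted p = 0.076). SETD7 followed (0.48, SE 0.11, adjusted p = 0.078), its log2 change being -0.36 in MM6 and -0.84 in NB4. SIRT5 differed by 0.63 (SE 0.18, adjusted p = 0.12), DNMT3A by 0.49 (SE 0.15, adjusted p = 0.14) and KDM7A by 0.57 (SE 0.19, adjusted p = 0.17). KDM7A was at 1.15 and 0.665 RPKM in MM6 shM14 and 0.823 and 0.594 RPKM in MM6 shNS libraries, too low to be tested in MM6. It entered this fit through its NB4 libraries, so its difference rests largely on its fall in NB4. DNMT3A was at 9.68 and 11.7 RPKM in MM6 shM14 and 11.9 and 10.6 RPKM in MM6 shNS libraries, which overlap. For KDM5B the difference was -0.08 (SE 0.16) and for HDAC9 0.19 (SE 0.20), both on the scale of log2(RPKM + 1). In mean RPKM the HDAC9 change was no larger in MM6 (67.7%) than in NB4 (71.7%).

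The lines share no library, so signs can be compared directly. Of 25 members called in NB4 and tested in MM6, 18 had the same sign there, or 72.0%, beside 71.9% of the 4985 genes called in NB4. By direction, 6 of 7 members that rose and 12 of 18 that fell in NB4 kept their sign. SIRT7 was the riser with the opposite sign, at 31.9 and 49.0 RPKM in MM6 shM14 and 42.6 and 73.2 RPKM in MM6 shNS libraries, where the hairpin groups overlapped.

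**Figure D3:**
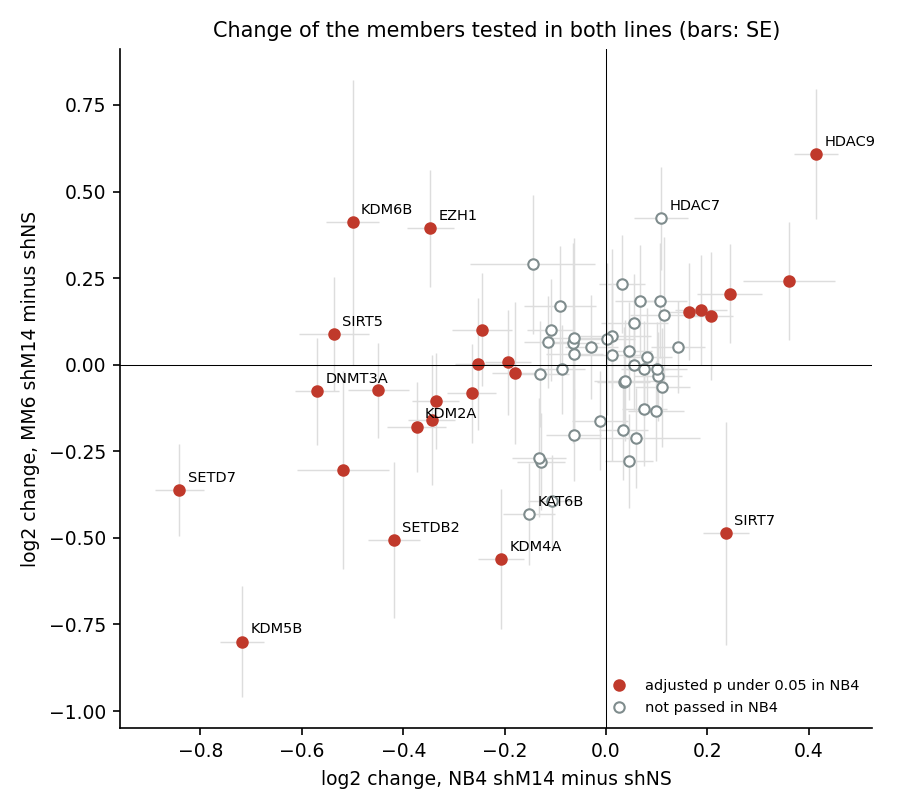
Log2 change of RPKM + 1 in NB4 (shM14 minus shNS, horizontal) and in MM6 (vertical) for the 65 members tested in both lines, with SE bars; filled points passed in NB4. KDM5B lies at -0.72 and -0.80 and HDAC9 at 0.41 and 0.61, while EZH1 lies at -0.35 in NB4 and 0.39 in MM6, where it did not pass.

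The control lines were compared to set the level of each enzyme apart from the hairpin. In control libraries 44 of 67 members passed for MM6 shNS minus NB4 shNS, 10 higher and 34 lower in MM6, beside 71.1% of all 12450 genes, 34.3% higher and 36.8% lower. The median log2 difference was -0.30 over members and -0.03 over all genes. Among those called 16 differed by at least 2-fold on the scale of log2(RPKM + 1). Line and any difference in culture or library making between the lines cannot be told apart. The 2 lines did not overlap for 16 members that were higher in both MM6 shNS libraries and 40 that were lower in both, beside 42.1% and 45.2% of all genes. Without NB4 shNS replicate 1 or replicate 2 fewer members were called, and a smaller share of all genes was called too.

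The 3 tested DNA methyltransferases were lower in MM6. DNMT3B, the de novo enzyme, was at 4.75 and 4.75 RPKM in MM6 shNS and 30.9 and 29.9 RPKM in NB4 shNS libraries, a ratio of 0.156 (log2 difference -2.45, SE 0.08, adjusted p = 3.6e-05). DNMT1 was at 90.1 and 90.8 RPKM in MM6 shNS and 176 and 181 RPKM in NB4 shNS libraries (-0.97, SE 0.08, adjusted p = 0.00040), and DNMT3A at 11.9 and 10.6 RPKM in MM6 shNS and 22.3 and 22.4 RPKM in NB4 shNS libraries (-0.93, adjusted p = 0.00072, named with its family after its value was seen). No library of 1 line overlapped the other for these 3 genes. TET2 was higher in MM6, at 4.21 and 4.68 RPKM in MM6 shNS and 2.24 and 2.12 RPKM in NB4 shNS libraries (0.77, SE 0.09, adjusted p = 0.0012).

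Among histone demethylases KDM7A was under 1 RPKM in MM6 controls, at 0.823 and 0.594 RPKM in MM6 shNS and 11.2 and 10.9 RPKM in NB4 shNS libraries, a ratio of 0.0641 (-2.82, SE 0.10, adjusted p = 4.1e-05). It entered this test through its NB4 libraries alone, so at that MM6 level only a lower value in MM6 could be called. KDM5C (-1.24), KDM4C (-1.18), KDM3A (-0.96) and KDM5B (-0.96) were also lower in MM6, with adjusted p-values of 0.00025 to 0.00046, and KDM1B was higher (0.31, adjusted p = 0.032). Of the methyltransferases EZH1 (-1.32, SE 0.09, adjusted p = 0.00022), KMT2A (-1.20, SE 0.10, adjusted p = 0.00032) and SETD8 (-1.08, SE 0.09, adjusted p = 0.00037) were lower. KMT2A was at 8.14 and 7.26 RPKM in MM6 shNS and 18.7 and 19.1 RPKM in NB4 shNS libraries. Its paralog KMT2B (0.90, adjusted p = 0.0040) and the H3K36 methyltransferase SETD2 (0.53, adjusted p = 0.0031) were higher in MM6.

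Deacetylases held the members that were highest in MM6 relative to NB4. SIRT2, mainly a cytoplasmic tubulin deacetylase, was at 29.3 and 31.3 RPKM in MM6 shNS and 5.31 and 4.86 RPKM in NB4 shNS libraries, a ratio of 5.95 (2.36, SE 0.09, adjusted p = 4.8e-05). HDAC9 had a ratio of 4.71 (1.44, SE 0.08, adjusted p = 0.00012) and SIRT7 of 3.79 (1.80, SE 0.26, adjusted p = 0.0022), with SIRT7 at 42.6 and 73.2 RPKM in the 2 MM6 shNS libraries. HDAC9 was at 0.861 and 0.866 RPKM in NB4 shNS libraries and entered this test through its MM6 libraries alone, so only a higher value in MM6 could be called. HDAC1 (0.83, adjusted p = 0.0011), SIRT6 (0.71, adjusted p = 0.0058) and the acetyltransferase KAT7 (0.46, adjusted p = 0.013) were higher too, whereas HDAC6 (-1.29, adjusted p = 0.00023) and HDAC7 (-0.91, adjusted p = 0.00056) were lower. The remaining members lower in MM6 were EZH2, HDAC5, HDAC8, HDAC10, KAT2B, KDM2B, KDM3B, KDM5A, KDM6A, KMT2C, KMT2D, KMT2E, SETD1B, SETD3, SETD6, SETD9, SIRT1, SIRT3, SIRT4, SIRT5 and TET1. Of these SIRT4, at 0.867 and 0.603 RPKM in MM6 shNS libraries, entered this test through its NB4 libraries alone.

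**Figure D4:**
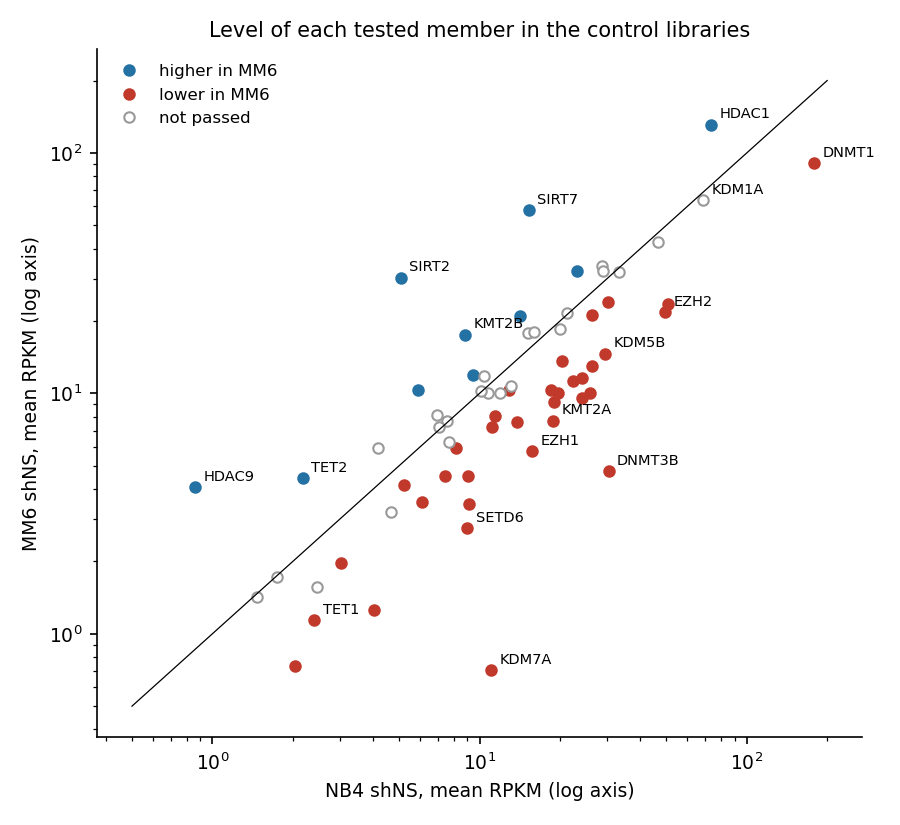
Mean RPKM of each tested member in MM6 shNS libraries (vertical, log axis) against NB4 shNS libraries (horizontal, log axis), 2 libraries each; the line marks equal levels and filled points passed. KDM7A (ratio 0.0641) and DNMT3B (0.156) lie furthest below the line and SIRT2 (5.95) and HDAC9 (4.71) furthest above it.

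The enzymes work in complexes, and 82 of 84 listed partner genes and related enzymes with other symbols were in the files and tested. In NB4 21 of the 82 rose and 14 fell with shM14, beside the same 22.1% and 25.2% of all genes. The median log2 change of the 82 was 0.03. In MM6 limma called 0, beside 0.0757% of all genes, and 9 had an unadjusted p under 0.05, beside 15.0%. With voom 0 partners were called in MM6, beside 0.21% of all genes. Over both lines 2 rose and 5 fell, beside 4.80% and 7.10% of all genes. The acetyltransferase subunits had 0 that rose and 4 that fell among 16 in NB4. These were the SAGA adaptors TADA2B (-0.62, adjusted p = 0.0010) and TADA3 (-0.48, adjusted p = 0.0017) and the readers ING4 (-0.37) and ING5 (-0.24). TADA3 was at 11.4 and 11.2 RPKM in NB4 shM14 and 16.0 and 16.2 RPKM in NB4 shNS libraries, and at 14.0 and 19.8 RPKM in MM6 shM14 and 31.3 and 32.3 RPKM in MM6 shNS libraries. It was lower in all 4 knockdown libraries (log2 change over both lines -0.68, SE 0.12, adjusted p = 0.014), as was TADA2B (-0.45, SE 0.08, adjusted p = 0.015).

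Of 11 COMPASS subunits, partners of the H3K4 methyltransferases, RBBP5 (0.21) and PAXIP1 (0.20) rose and ASH2L fell (-0.35) in NB4, and ASH2L also fell over both lines (-0.38, SE 0.07, adjusted p = 0.014). PRC2 subunits split 2 against 2 of 9, with JARID2 (0.28) and EED (0.16) higher and MTF2 (-0.29) and RBBP7 (-0.23) lower; MTF2 fell over both lines (-0.31, SE 0.06, adjusted p = 0.022). Among 16 corepressor subunits 5 rose, with TBL1X (0.45) and CHD4 (0.28) among them, and 2 fell, the repressor GFI1 (-0.58) and MTA3 (-0.35). Of 8 DNA methylation partners IDH1 (0.57), TDG (0.29) and HELLS (0.28) were among 4 that rose, and MBD4 fell (-0.23). Among 22 related enzymes 8 rose and 4 fell, including SMYD3 (0.57), NAA60 (0.41), the acetyltransferase EP300 (0.32) and SUV420H2 (-0.31). The remaining calls over both lines were MBD2 (0.30, adjusted p = 0.047), CREBBP (0.22, adjusted p = 0.049) and JMJD1C (-0.42, adjusted p = 0.039).

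For the difference between the lines, limma called 2 of 82 partners, beside 2.92% of all genes. At an unadjusted p under 0.05 there were 14, beside 19.6% of all genes, and voom called 3, beside 1.90%. SMYD3, a lysine methyltransferase, was at 12.3 and 13.8 RPKM in MM6 shM14 and 16.0 and 14.7 RPKM in MM6 shNS libraries, and at 16.0 and 16.3 RPKM in NB4 shM14 and 10.6 and 10.5 RPKM in NB4 shNS libraries, a difference of -0.79 (SE 0.12, adjusted p = 0.030). ING5 was at 5.65 and 6.15 RPKM in MM6 shM14 and 3.99 and 4.28 RPKM in MM6 shNS libraries, and at 11.8 and 11.9 RPKM in NB4 shM14 and 13.5 and 14.8 RPKM in NB4 shNS libraries, a difference of 0.66 (SE 0.12, adjusted p = 0.043). Their hairpin groups lay in opposite order in the 2 lines, without overlap within a line.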

How the data were processed

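The authors deposited 1 table per line. The RPKM of each library is a deposited value, per 1e6 reads assigned to genes, a unit worked out from the values; the signal columns are the authors' group means of reads divided by size factors, and a ratio column gives their fold of shM14 over shNS. Per the file headers, log2 columns hold its log2 and p-value columns the p and adjusted p. The sources used here do not name the aligner, counter, strand, build or the test behind the authors' p-values. Whole reads were recovered for 100% of values within 0.01 and gave the depths.

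Each table was read by gene ID and symbol; gene lengths were the same in both for 16409 of 16409 genes. Genes with at least 1 RPKM in at least 2 of the fitted libraries entered, and all of them were modelled together as log2(RPKM + 1) in R 4.3.3 by limma 3.58.1, using moderated variances and Benjamini-Hochberg adjustment (threshold 0.05). NB4 and MM6 were fitted separately, with 2 libraries per hairpin; the common change (line plus hairpin) and the difference between lines (interaction) used all 8, and the control contrast the 4 shNS libraries. Levels were compared across the tables because RPKM was formed alike in both. Summaries and figures used Python 3.11.15, numpy 2.4.6, pandas 2.3.3 and matplotlib 3.10.9. The scripts were tested on simulated data. Promoter windows were matched by gene ID to RefSeq.

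Members, lists and tests were chosen with earlier results of these data known. Named were all members past the threshold in a contrast or, above 12 in 1 direction, the 12 with the smallest p; the 5 with the smallest p where none passed; the most abundant member of each role; and up to 4 partners a list. Alternatives changed the pseudocount (0.1), filter, scaling, variance model, test, replicate block, fitted samples, or left out 1 library.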

Additional observations from a re-analysis of the deposited data

How the results depend on the processing

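The counts of members past the threshold depended on the test and on single libraries more than on pseudocount or filter. In NB4, 26 members (7 higher, 19 lower) became 40 with voom on recovered reads (17 higher; 56.0% of all genes) and 7 in 1 model of all 8 libraries (0 higher, 7 lower; 15.3%); leaving out each library gave 14 to 24 in all, 0 to 5 higher and 13 to 19 lower (26.8% to 41.2%). In MM6, 0 became 6 in the model of all 8 libraries (2 higher, 4 lower; 11.1% of all genes), and leaving out each library gave 0 in every case and direction. Over both lines, 5 (1 higher, 4 lower) became 3 with a pseudocount of 0.1 (2 lower; 11.4% of all genes), 8 with median-of-ratios scaling (4 higher; 14.0%) and 12 with voom (4 higher, 8 lower; 19.2%); leaving out each library gave 2 to 10, 0 to 1 higher and 2 to 9 lower (3.89% to 15.2%). For the difference between lines, 0 became 1 with median-of-ratios scaling (1 higher, 3.68% of all genes) and 2 with voom (2 higher, 1.90%). Leaving out either MM6 shM14 library gave calls among members, all higher, and more calls among all genes too. Leaving out any other library gave no member. Between control lines, leaving out each library gave 29 to 54, 7 to 15 higher and 22 to 39 lower. Direction was checked for members called in a contrast, the 5 with the smallest p where none was called, and METTL14. None of these was reversed under the alternatives in which it was tested. The other named genes, among them all partners, were not checked. KDM5B and SETD7 passed over both lines under every alternative; in NB4 7 members did (DNMT3A, HDAC5, KDM2A, KDM4C, KDM5B, SETD7 and SIRT5), and between control lines 28 of 44.

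Replicate numbers were tried as a block, though no label says that they pair libraries: the correlation of replicate differences between hairpins was 0.08 in NB4 (11531 genes) and 0.70 in MM6 (11895 genes). With the replicate block 26 members passed in NB4 (45.5% of all genes), 4 in MM6 (1 higher, 3 lower; 11.8%), 5 over both lines (11.3%) and 4 for the difference between lines (3 higher, 1 lower; 8.93%). The cause of these shifts was not tested. Where a left-out library leaves a group with 1, that library is assumed to vary like the other groups. Median-of-ratios scaling moved the median of all genes by at most 0.06 in log2.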

Other observations

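In MM6 some members differed between same-numbered replicates in both hairpin groups. By a fold of at least 1.4 between replicates in the same direction in both groups, 5 members were higher in replicate 2 (HDAC10, KAT2A, KDM8, SETD4 and SIRT7) and 3 were lower (KAT2B, KDM6B and KMT2E-AS1). KAT2A was at 26.0 and 42.1 RPKM in replicates 1 and 2 of MM6 shM14 and at 26.2 and 38.2 RPKM in those of MM6 shNS. KDM6B was at 6.53 and 2.80 RPKM in replicates 1 and 2 of MM6 shM14 and at 4.38 and 2.01 RPKM in those of MM6 shNS.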
